A study of Mus musculus with 6 samples.

Results

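The data describe 7 interferon-inducible GTPase genes in group 2 innate lymphoid cells (ILC2s) of the mouse lung: the guanylate-binding protein genes Gbp2, Gbp3, Gbp5 and Gbp7 and the immunity-related GTPase genes Igtp, Irgm1 and Irgm2. They were taken by gene symbol from the deposited count table, and all 7 had a row among its 21825 genes and passed the filter on low counts. ILC2s are tissue lymphocytes without a rearranged antigen receptor that make type 2 cytokines. The donors were BALB/c mice, 6 weeks of age, each injected 3 times intraperitoneally with 1 µg recombinant IL-33, so all libraries share that exposure. The freshly sorted cells were kept for 48 hours in IL-2 and IL-7, each at 10 ng/mL. In 3 libraries, numbered 4 to 6, recombinant TNFa was present at 40 ng/mL, and in the other 3, numbered 1 to 3, PBS took its place. PBS replicate 2 carries the word repeat in its label. Nothing in the labels says whether libraries of a group came from separate mice or cultures, so p-values rest on the spread among these libraries, which may be technical.

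Guanylate-binding proteins (GBPs) are large GTPases that assemble on bacteria and on vacuoles that hold parasites, and they help to expose bacterial lipopolysaccharide to the caspase-11 inflammasome. Immunity-related GTPases (IRGs) are smaller relatives in function. The Irgm1, Irgm2 and Igtp products are regulators that keep the effector IRGs in check on the cell's own membranes. Both families are textbook targets of interferon gamma: the receptor activates JAK1 and JAK2, and the signal reaches target genes through DNA elements called GAS and ISRE, the second of which IRF1 can bind. TNF acts mainly through NF-kB and can add to interferon signals on some of these genes.

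The libraries held 25089415 to 32487004 estimated counts in genes. TNFa replicate 5 stood apart from all others: its log2 expression had a mean correlation of 0.976 with the other libraries, against 0.985 to 0.986 for each of those, and it scored 51.3 on a first component (39.4% of the variance) where the others lay between -13.9 and -7.62. The 10 listed ILC2 markers were all present and summed to 7285 to 8335 CPM (counts scaled to library size) per library, of which the cytokine gene Il5 made up 4009 to 5796 CPM. Of the 10, 6 were lower in every TNFa library than in any PBS library, among them Gata3 (log2 fold change -0.47), Il1rl1 (-0.54) and the costimulatory receptor gene Icos, and 2 were higher in every one, Il5 and Areg. Over all 15719 tested genes, 1313 were lower and 1076 higher in every TNFa library than in any PBS library. Icos fell (-0.78 ± 0.10, edgeR adjusted p = 0.036), limma-voom called the same gene, and DESeq2 called 3 lower, Icos, Gata3 and Il1rl1. In either direction, limma-voom called 0.07% of all genes and DESeq2 1.51%. Mast cell markers summed to 964 to 1184 CPM, and T cell markers to 79.4 to 105 CPM. The comparison of TNFa with PBS called 16 of 15719 tested genes, or 0.102%, in either direction.

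The promoter sequences of the 7 genes are shown as a description, and whether they had a part in the levels was not tested. RefSeq (GRCm38.p6) gave 8 windows for the 7 genes, Gbp3 having 2, each from 250 bases before to 50 bases after a transcription start. The ISRE core was searched as GAAA, any 2 bases and GAAA again, which on the opposite strand reads TTTC, any 2 bases and TTTC. GAS was searched as TTCNNNGAA, and the NF-kB consensus as the third motif, all on both strands. Matches are in capitals in the sequences below, which run 5′ to 3′ in the direction of the gene. The first 5 stretches have 140 bases and hold no base that GENCODE M21 annotates as an exon; those of Gbp5 and Irgm2 lie in an intron of a transcript that starts further upstream. A second GAS match of Gbp5, 245 bases before the start, is outside the stretch shown. For Gbp2 and Irgm1 the matches lie within an exon of a transcript that GENCODE starts further upstream, so only 30 bases are given.
Gbp5, chr3:142496760-142496899, plus strand: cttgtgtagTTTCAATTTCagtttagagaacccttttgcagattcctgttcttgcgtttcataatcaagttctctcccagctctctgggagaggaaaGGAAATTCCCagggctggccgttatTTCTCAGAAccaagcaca
Gbp7, chr3:142530196-142530335, plus strand: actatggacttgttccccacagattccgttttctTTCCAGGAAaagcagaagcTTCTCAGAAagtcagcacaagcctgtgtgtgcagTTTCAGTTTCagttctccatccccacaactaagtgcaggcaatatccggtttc
Gbp3, chr3:142559886-142560025, plus strand: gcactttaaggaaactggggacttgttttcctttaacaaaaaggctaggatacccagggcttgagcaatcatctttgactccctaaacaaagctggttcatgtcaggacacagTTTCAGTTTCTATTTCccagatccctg
Igtp, chr11:58199416-58199555, plus strand: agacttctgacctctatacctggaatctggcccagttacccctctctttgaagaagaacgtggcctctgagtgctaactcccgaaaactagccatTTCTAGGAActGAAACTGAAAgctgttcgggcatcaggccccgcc
Irgm2, chr11:58214837-58214976, plus strand: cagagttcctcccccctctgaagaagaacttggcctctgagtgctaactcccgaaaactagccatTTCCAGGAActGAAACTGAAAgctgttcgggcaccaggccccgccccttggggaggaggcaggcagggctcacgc
Gbp2, chr3:142620594-142620623, plus strand: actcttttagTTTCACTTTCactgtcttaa
Irgm1, chr11:48871428-48871457, minus strand: gtttcaaGAAATAGAAACCGAAActgattc

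An ISRE core was present for 7 of 7 genes. Over all 32851 RefSeq promoter windows of the same length, 3.44% held one. In Gbp3 and in Irgm1 a pair of overlapping ISRE cores formed the match. GAS was found for 4 of the 7 genes, Gbp5, Gbp7, Igtp and Irgm2, and in 8.3% of all windows. The NF-kB consensus was found once, in Gbp5, 77 bases before the start, and in 5.8% of all windows. In Igtp and in Irgm2 the GAS and the ISRE core were 2 bases apart. These 2 promoters were 68.9% identical over the 250 upstream bases in a global alignment and shared an unbroken run of 55 bases, while the other 20 pairs of promoters had 47.6% to 55.4% identity. Such matches are a description of letters in a window and not of bound sites.

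**Figure D1:**
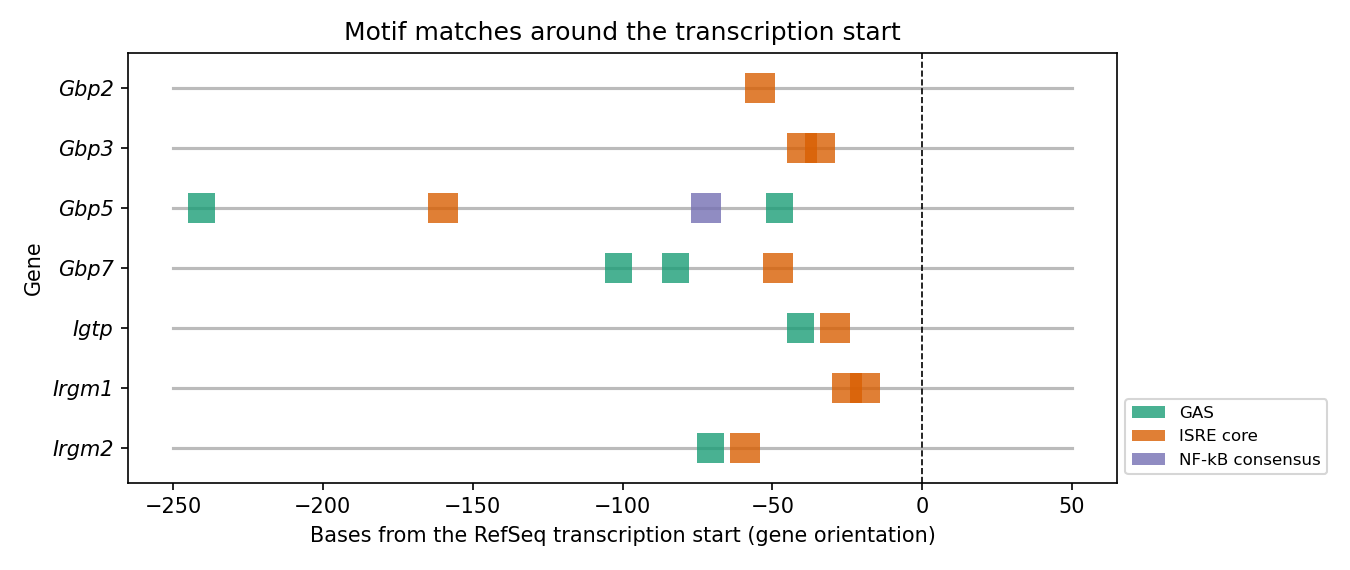
Positions of motif matches in the promoter windows of the 7 genes, in bases from the RefSeq transcription start (x axis, dashed line at the start), 1 row per gene. Orange marks the ISRE core, green GAS and purple the NF-kB consensus; every gene has an ISRE core, and Gbp5 alone of the 7 has the NF-kB consensus.

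The 4 genes that encode guanylate-binding proteins lie in 1 cluster on chromosome 3 (mm10, plus strand): Gbp5 (142493978 to 142522344), Gbp7 (142530342 to 142550149), Gbp3 (142560026 to 142573209) and Gbp2 (142620602 to 142638008). Gbp2, a lipid-anchored GBP that is recruited to pathogen vacuoles, stood at 26.4, 18.0 and 22.1 CPM in PBS replicates 1 to 3 and at 34.9, 29.3 and 90.0 CPM in TNFa replicates 4 to 6. The groups did not overlap, and TNFa replicate 6 was 2.58 times the next highest library. The mean was 22.2 ± 4.19 CPM with PBS and 51.4 ± 33.5 with TNFa (SD, n = 3 each). The log2 fold change was 1.22 ± 0.38 (SE), or 2.32-fold with a 95% interval of 1.30 to 4.16, and it did not pass (edgeR quasi-likelihood test, Benjamini-Hochberg adjusted p = 0.39).

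Gbp5, which promotes inflammasome assembly, stood at 13.2, 12.6 and 19.4 CPM with PBS and at 32.4, 25.0 and 53.8 CPM with TNFa. These groups did not overlap either, and all 3 TNFa libraries lay at least 1.66 times above the PBS mean. Its log2 fold change of 1.30 ± 0.29 (2.46-fold, 95% interval 1.58 to 3.86) had the lowest adjusted p of the 7 genes (edgeR, adjusted p = 0.22). In these bulk libraries, more cells that express a gene and more RNA per expressing cell cannot be told apart.

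Gbp3 stood at 26.4, 24.5 and 23.8 CPM with PBS and at 39.8, 23.3 and 62.0 CPM with TNFa. TNFa replicates 4 and 6 were above every PBS library, and replicate 5 was below all of them. Its log2 fold change was 0.75 ± 0.29 (edgeR, adjusted p = 0.51). Gbp7, a further member of the GBP cluster, stood at 89.4, 80.1 and 87.5 CPM with PBS and at 124.5, 79.5 and 158.8 CPM with TNFa. The same order held, with replicate 5 just under the lowest PBS library. Its log2 fold change, 0.50 ± 0.21, was the smallest of the 7 (edgeR, adjusted p = 0.56). In the annotation 11.3% of the exon bases of Gbp7 are shared with Gm43802, so some of its reads may be divided between them.

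The other 3 genes encode the regulatory IRGs and lie in a pair of clusters on chromosome 11 (mm10): Irgm1 at 48861968 to 48871683 on the minus strand, and Igtp (58199556 to 58207591) and Irgm2 (58199618 to 58222782) on the plus strand. Irgm1, a regulator linked to autophagy and to lymphocyte survival, stood at 114.8, 102.0 and 109.7 CPM with PBS and at 156.9, 109.8 and 300.3 CPM with TNFa. TNFa replicate 5 lay inside the PBS range, and replicate 6 was 1.91 times the next library. The log2 fold change was 0.80 ± 0.29 (edgeR, adjusted p = 0.49).

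Igtp, also called Irgm3, stood at 174.9, 138.8 and 145.9 CPM with PBS and at 207.9, 170.5 and 416.2 CPM with TNFa. Again replicate 5 was inside the PBS range and replicate 6 was far the highest, 2.00 times replicate 4. Its log2 fold change was 0.79 ± 0.28 (edgeR, adjusted p = 0.46). Irgm2, whose product acts at the Golgi and restrains caspase-11 responses, stood at 21.5, 15.6 and 24.9 CPM with PBS and at 36.4, 13.5 and 55.5 CPM with TNFa. Replicate 5 was the lowest of all 6 libraries for this gene. The log2 fold change was 0.77 ± 0.41 (edgeR, adjusted p = 0.68). An annotated Irgm2 transcript starts inside Igtp, and the genes share 162 exon bases, 8.01% of those of Igtp and 4.39% of those of Irgm2, so their counts are not fully independent.

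**Figure D2:**
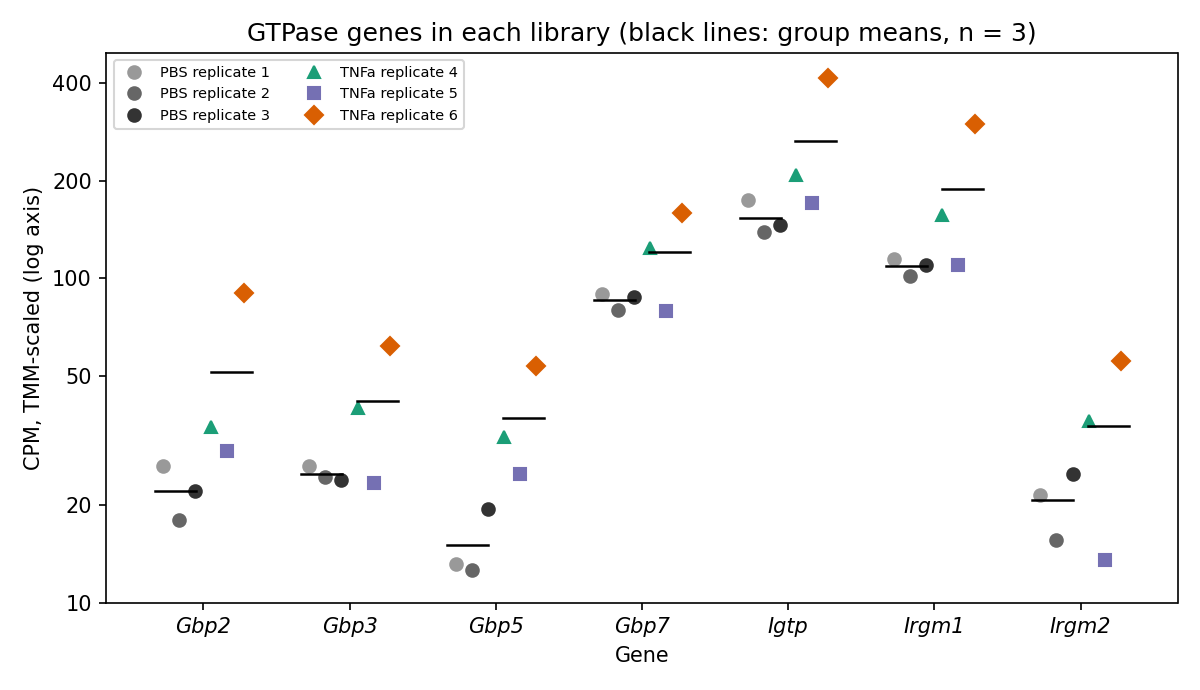
CPM (TMM-scaled, log axis) of the 7 genes in each of the 6 libraries; grey to black circles are PBS replicates 1 to 3, the triangle, square and diamond are TNFa replicates 4, 5 and 6, and black lines are group means (n = 3). TNFa replicate 6 is highest and TNFa replicate 4 second for all 7 genes, while replicate 5 lies among or below the PBS libraries for 5 of them.

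In the test over all genes, 0 of the 7 passed at an adjusted p under 0.05 (edgeR), where 0.0891% of tested genes were called higher. At an unadjusted p under 0.05, 6 of 7 were higher, Irgm2 being the exception, against 3.68% of all tested genes. DESeq2 called Gbp5 (adjusted p = 0.00325; 0.676% of all genes called higher), and limma-voom called 0 of the 7 (0.0636% of all genes called higher). The median log2 fold change of the 7 genes was 0.79, and that of all tested genes was 0.00. The 3 TNFa libraries all lay above the 3 PBS libraries for 2 of the 7, Gbp2 and Gbp5, against 6.85% of all tested genes.

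The 3 TNFa libraries differed in the levels of these genes. TNFa replicate 6 was the highest of the 6 libraries for 7 of 7 genes, which held for 13.7% of all tested genes, and replicate 4 came second for each of them, an order found in 4.15% of all tested genes. Relative to the PBS mean, the 7 genes stood at 1.85 to 4.06 times in replicate 6, at 1.36 to 2.16 times in replicate 4 and at 0.655 to 1.66 times in replicate 5. Their summed level was 391.6 to 466.6 CPM with PBS and 632.9, 450.9 and 1137 CPM in TNFa replicates 4, 5 and 6. Replicate 6 alone made up between 58.7% (Gbp5) and 80.1% (Irgm2) of the difference between the group means.

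The coefficient of variation shows the same split. With PBS it was 5.39% for Gbp3, 5.72% for Gbp7 and 5.94% for Irgm1, 12.5% for Igtp, and 18.9% to 24.9% for Gbp2, Irgm2 and Gbp5. With TNFa it was 32.9% to 65.3%. The medians over 9943 genes with a mean of at least 5 CPM were 10.4% with PBS and 14.1% with TNFa.

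Without TNFa replicate 6 the median log2 fold change of the 7 was 0.30, and 0 of 7 passed (0.0305% of all genes called higher). Gbp5 then stood at 0.93 ± 0.25 and Gbp2 at 0.53 ± 0.21 (edgeR, adjusted p = 0.41 and 0.54), and the other 5 lay between 0.25 and 0.34. TNFa replicates 4 and 5 were both above all PBS libraries for Gbp2 and Gbp5, against 11.9% of all genes. Without TNFa replicate 5, the library that stood apart, the median was 1.07 and 3 of 7 genes passed (0.231% of all genes called higher): Gbp3 at 1.03 ± 0.18, Gbp5 at 1.52 ± 0.24 and Gbp7 at 0.72 ± 0.12 (edgeR, adjusted p = 0.039, 0.027 and 0.029). TNFa replicates 4 and 6 were both above all PBS libraries for 7 of 7 genes, against 13.5% of all genes.

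**Figure D3:**
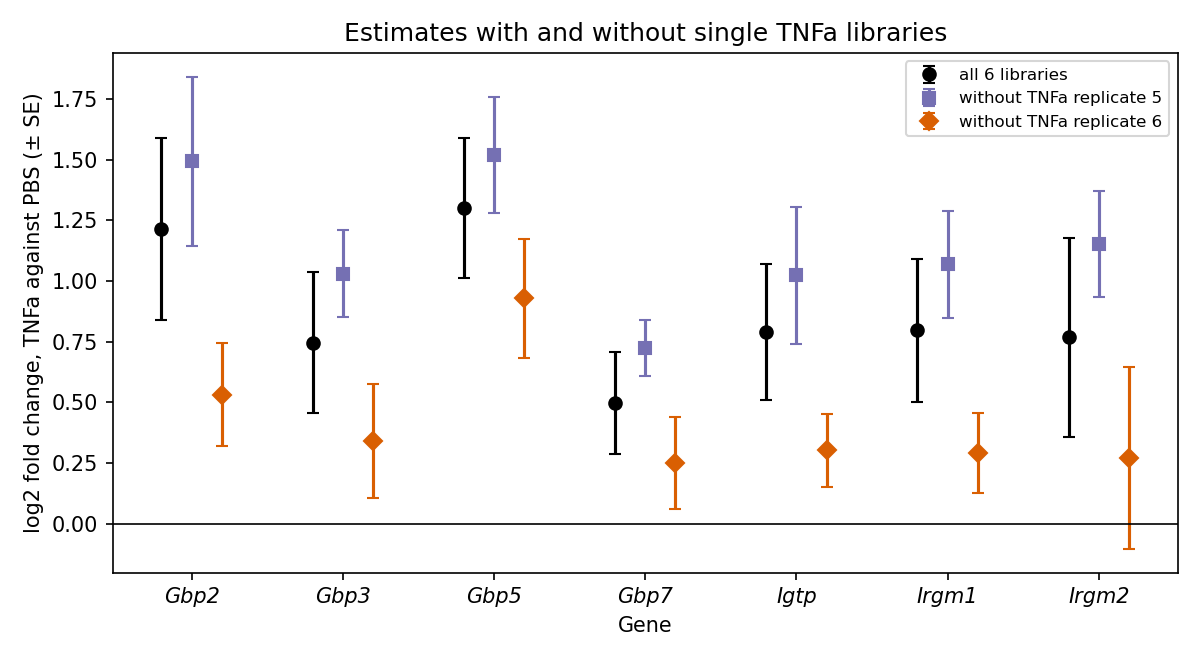
log2 fold change of TNFa against PBS with its SE (y axis) for the 7 genes, from all 6 libraries (black), without TNFa replicate 5 (purple) and without TNFa replicate 6 (orange). Each gene has its lowest estimate without replicate 6, with a median of 0.30 over the 7, and its highest without replicate 5, with a median of 1.07. These directions restate the library order, since replicate 6 was the highest and replicate 5 the lowest TNFa library for all 7 genes.

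Levels of different genes can be compared only per length, here as CPM per kilobase of annotated exon. With PBS, Igtp was highest at 75.8 ± 9.46, followed by Irgm1 at 18.7 ± 1.11 and Gbp7 at 15.3 ± 0.874. Gbp2 (8.81 ± 1.67) and Gbp3 (7.63 ± 0.411) came next and overlapped, so their order is within the spread between libraries. Irgm2 stood at 5.60 ± 1.27 and Gbp5 was lowest at 2.27 ± 0.566. The order of the means was the same with TNFa, from 131 ± 65.5 for Igtp to 5.59 ± 2.26 for Gbp5, but neighbouring genes overlapped far more: Gbp7 at 21.5 ± 7.09 and Gbp2 at 20.4 ± 13.3 could not be ordered. Taking the longest transcript as the length put Gbp3 (9.29) above Gbp2 (8.81) with PBS and left the other ranks in place.

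Other genes of the same families were listed too. Of 20 names listed, 16 had a row and all 16 were tested. None passed in edgeR, DESeq2 or limma-voom, and 9 were higher at an unadjusted p under 0.05 (edgeR). The median log2 fold change was 1.18, and 15 of 16 had higher means with TNFa, Irgq being the exception. Gbp8 was higher through replicate 6 alone: replicates 4 and 5, at 14.8 and 16.4 CPM, lay below all PBS libraries (18.4 to 22.4), and its log2 fold change was -0.37 without replicate 6. TNFa replicate 6 was highest for 16 of 16, and replicate 4 second for 13. Relative to the PBS mean the median of the 16 was 4.08 times in replicate 6, 1.57 times in replicate 4 and 1.02 times in replicate 5. Without replicate 6 their median log2 fold change was 0.44.

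Among the effector IRGs, which attack vacuole membranes, Iigp1 stood at 5.52, 6.09 and 7.41 CPM with PBS and at 14.9, 13.7 and 79.0 CPM with TNFa, so that its groups did not overlap (edgeR, log2 fold change 2.50 ± 0.66, adjusted p = 0.35). Tgtp1 likewise did not overlap (1.80 ± 0.41, adjusted p = 0.23), while its near-identical neighbour Tgtp2 stood at 107.5 to 121.1 CPM with PBS and at 213.4, 120.9 and 457.1 CPM with TNFa (1.19 ± 0.41, adjusted p = 0.46). Gm12250, the gene of the effector Irgb10 although the deposited table lists it as a processed pseudogene, had a log2 fold change of 1.23 ± 0.43 (edgeR, adjusted p = 0.45). Ifi47, another effector, stood at 0.54 ± 0.24 (adjusted p = 0.60). Of the GBP genes on chromosome 5, Gbp4 stood at 209.4 to 256.0 CPM with PBS and at 388.8, 237.3 and 852.9 CPM with TNFa (1.10 ± 0.41, edgeR adjusted p = 0.51). Gbp10 stood at 1.86 ± 0.68 (adjusted p = 0.51), Gbp6 at 1.36 ± 0.59 (adjusted p = 0.61), Gbp9 at 0.82 ± 0.38 (adjusted p = 0.63) and Gbp8 at 0.17 ± 0.32 (adjusted p = 0.92). Gbp2b, which lies beside Gbp2, stood at 1.17 ± 0.45 (adjusted p = 0.50). Gbp11 and Gm4951, at 0.671 and 0.582 CPM with PBS, stood at 2.46 ± 1.13 and 1.42 ± 0.69 on the log2 scale, with an adjusted p of 0.61 and 0.65. The very large GTPase genes Gvin1 and Gm4070 stood at 0.51 ± 0.23 and 0.50 ± 0.18 (adjusted p = 0.61 and 0.49), and Irgq at -0.13 ± 0.31 (adjusted p = 0.94). These families have copies of similar sequence, and 46.3% of the exon bases of Gbp10 and 29.0% of those of Gbp6 are shared with Gm43302, so reads may be divided wrongly among them.

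**Figure D4:**
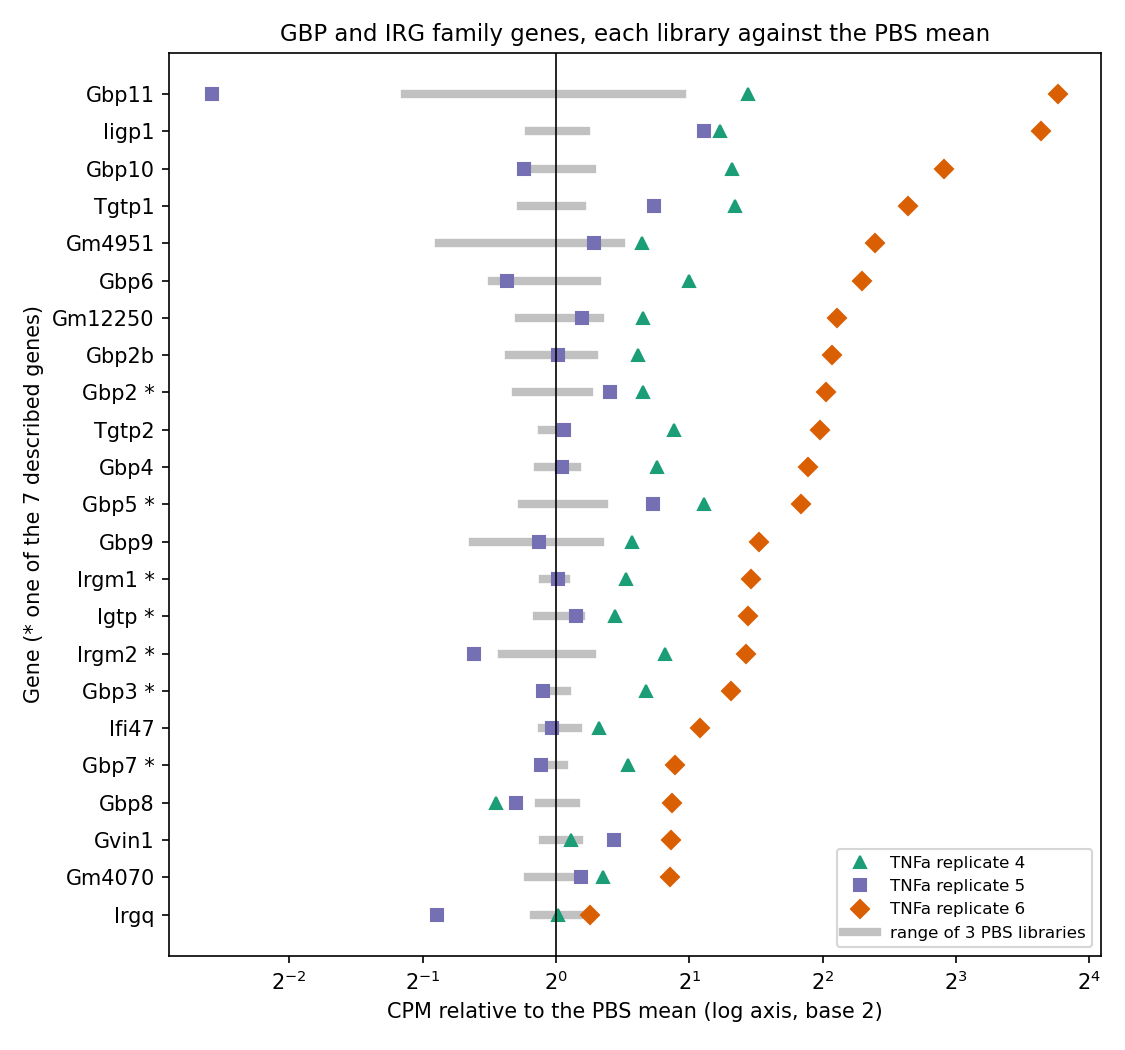
CPM relative to the PBS mean (x axis, log base 2) for the 7 genes (asterisks) and 16 further family genes, ordered by TNFa replicate 6; grey bars span the 3 PBS libraries and symbols are the 3 TNFa libraries. Replicate 6 (orange diamonds) is highest in all 23 rows, and replicate 5 (purple squares) lies close to the PBS mean for most, with a median of 1.01 times for the 7 and 1.02 times for the 16.

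Neighbouring genes outside the family lists were compared with the listed GTPase genes. Whether any of these neighbours belong to the GTPase families was not checked. Within 250 kb of the 7 genes, 14 tested genes outside the family lists had a PBS mean of at least 5 CPM. TNFa replicate 6 was highest for 1 of these, Larp1, at 1.19 times the PBS mean. The 14 genes stood at 0.857 to 1.48 times the PBS mean in replicate 6, with a median of 1.04. The upper end was 9930111J21Rik1 at 1.48 and 9930111J21Rik2 at 1.43 times, which were highest in TNFa replicates 4 and 5. The 5 listed further family genes in these windows and the 7 described genes were all highest in replicate 6. Among the tested neighbours below 5 CPM were Gm12185, which shares exon bases with Tgtp1, Olfr56, which shares them with Ifi47, and Psme2b, all highest in replicate 6.

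Genes whose log2 CPM over the 6 libraries closely resembled the mean profile of the 7 were, among 9936 compared, Cd274 (r = 0.996), Tgtp2 (0.996), Gbp4 (0.993), Usp18 (0.993), Mfsd2a (0.987), Sgsm3 (0.986) and Aak1 (0.983). These are descriptions over 6 libraries that share the same 2 groups and scaling. Cd274 encodes the checkpoint ligand PD-L1 and stood at 10.2 to 13.3 CPM with PBS and at 19.6, 12.8 and 33.5 CPM with TNFa (edgeR, log2 fold change 0.89 ± 0.31, adjusted p = 0.46). Sgsm3 had a like profile over a narrow range, from 24.9 to 29.5 CPM (0.12 on the log2 scale, adjusted p = 0.87). Each of the 7 genes correlated with the mean of the other 6 at 0.879 (Gbp5) to 0.989 (Irgm1).

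Genes of interferon gamma signalling were then examined. None of 10 tested passed in edgeR, 2 were higher and 2 lower at an unadjusted p under 0.05, DESeq2 called Ifng higher and limma-voom 0. Over all tested genes, 3.68% were higher at an unadjusted p under 0.05 (edgeR) and 8.31% differed in either direction. DESeq2 called 0.676% of all genes higher. Of the 10, 6 had higher means and the median log2 fold change was 0.11. Ifng itself, the ligand, stood at 0.579, 0.204 and 1.68 CPM with PBS and at 4.07, 1.98 and 12.2 CPM with TNFa. Its groups did not overlap, and its TNFa libraries fell in the order of the GTPase genes, replicate 6, then 4, then 5 (edgeR, log2 fold change 2.88 ± 0.81, adjusted p = 0.35). Irf1, an interferon-induced transcription factor, stood at 89.2 to 98.6 CPM with PBS and at 140.4, 99.6 and 247.2 CPM with TNFa (0.79 ± 0.27, adjusted p = 0.43). The receptor chain Ifngr1 was lower in every TNFa library, at 81.8, 58.4 and 73.6 CPM against 85.6 to 93.9 with PBS (-0.33 ± 0.14, adjusted p = 0.56). So was Socs3, at 112.5, 132.0 and 127.9 CPM against 146.9 to 198.5 with PBS (-0.47 ± 0.13, edgeR adjusted p = 0.35). For the rest of the list the groups overlapped: Socs1 (-0.20), Jak1 (-0.07), Irf8 (0.09), Ifngr2 (0.12), Ptpn2 (0.17) and Jak2 (0.20). Whether Ifng had a part in the levels of the GTPase genes was not tested.

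Of the type I and III interferon ligands, receptors and signalling genes, 0 of 9 tested passed in edgeR, DESeq2 or limma-voom, 2 were higher at an unadjusted p under 0.05 (edgeR), and the median was -0.01. These 2, Irf7 and Usp18, are also counted among the type I interferon targets. Over all tested genes, 3.68% were higher at an unadjusted p under 0.05 (edgeR). Ifnb1 was at 0 in 5 libraries and at 0.575 CPM in TNFa replicate 6, and was too low to be tested. Type I interferon targets, tested for 13 genes, had a median of 0.75, with 12 higher means and 12 highest in TNFa replicate 6. None passed in edgeR or limma-voom, DESeq2 called 3 higher (0.676% of all genes), and 9 were higher at an unadjusted p under 0.05 (edgeR, 3.68% of all tested genes). Isg15, a ubiquitin-like modifier, had a log2 fold change of 1.22 ± 0.34 (edgeR, adjusted p = 0.34), and Zbp1, a nucleic acid sensor, of 0.66 ± 0.23 (adjusted p = 0.45). Of 14 other interferon gamma targets, 3 rose: Serpina3g and Serpina3f, a pair of protease inhibitor genes of similar sequence, and Upp1, uridine phosphorylase. Of all tested genes 0.0891% were called higher, but the list was drawn up with earlier results of the data known. Serpina3g stood above PBS (291.9 to 323.7 CPM) in each TNFa library, at 856.7, 752.5 and 1079 CPM (1.52 ± 0.14, edgeR adjusted p = 0.0038). The median of these 14 was 0.36, and limma-voom called 2 and DESeq2 4 of them higher (0.0636% and 0.676% of all genes).

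The NF-kB targets, chosen as genes that TNF is known to induce, were set beside them. Of 8 tested, 4 rose in edgeR (Nfkbia, Nfkb2, Birc3 and Traf1), where 0.0891% of all tested genes were called higher. For the 8, limma-voom called 3 and DESeq2 6 higher (0.0636% and 0.676% of all genes), the median was 0.88, and TNFa replicate 6 was highest for 2. Nfkb2, the p52 precursor gene, stood at 52.1 to 74.6 CPM with PBS and at 146.2, 130.0 and 136.1 CPM with TNFa (1.18 ± 0.15, edgeR adjusted p = 0.032). Summed over the 8 genes, TNFa replicates 4, 5 and 6 stood at 921.2, 899.3 and 900.2 CPM. That sum is carried by Traf1, Nfkbia, Nfkb2 and Birc3. Tnfaip3, at 59.3, 24.0 and 55.3 CPM, and Cd83, at 3.75, 1.23 and 2.96 CPM, were within the PBS range in replicate 5 and above it in the other TNFa libraries, as were Igtp and Irgm1. The sum of the 7 GTPase genes ranged from 450.9 to 1137 CPM over the same libraries. It is carried mainly by Igtp, Irgm1 and Gbp7, at 416.2, 300.3 and 158.8 CPM in replicate 6. Over all pathway lists, the 7 calls, 4 here and 3 among the other interferon gamma targets, came to 0 without PBS replicate 1 or 3, to 1 without PBS replicate 2, TNFa replicate 4, TNFa replicate 6 or the filter on low counts, and to 10 without TNFa replicate 5. These lists were drawn up with earlier results of the data known.

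**Figure D5:**
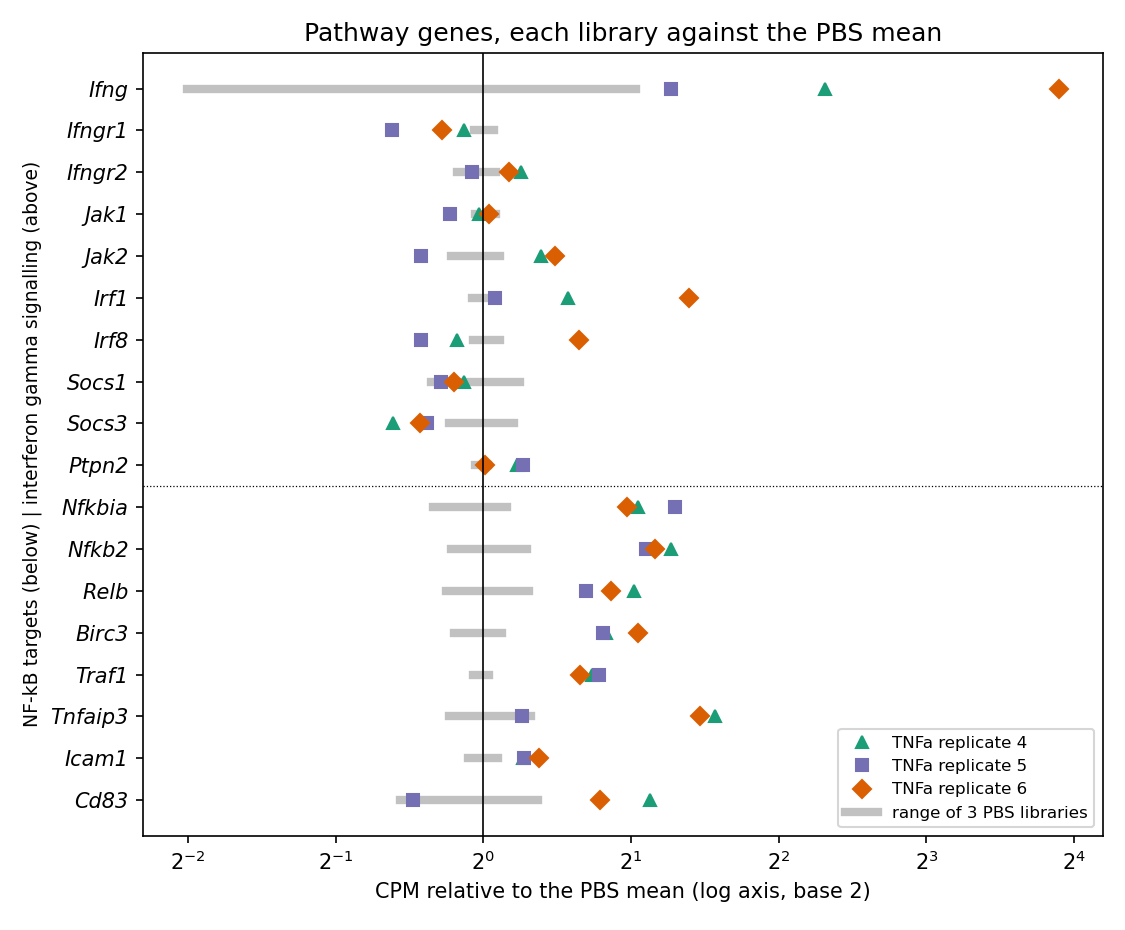
CPM relative to the PBS mean (x axis, log base 2) for 10 interferon gamma signalling genes (above the dotted line) and 8 NF-kB targets (below it); grey bars span the 3 PBS libraries and symbols are the 3 TNFa libraries. Ifng, Irf1 and Jak2 are highest in TNFa replicate 6 and next highest in replicate 4. For Ifngr1 and Socs3 each of the 3 TNFa libraries lies below all PBS libraries, and for Nfkbia, Nfkb2, Birc3 and Traf1 each lies above them.

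Partner genes of the GTPases were also listed. Of 9 inflammasome genes tested, 0 passed in edgeR or limma-voom, DESeq2 called Casp4 higher, 2 were higher at an unadjusted p under 0.05 (edgeR), and the median was 0.19. DESeq2 called 0.676% of all genes higher, and 3.68% of tested genes were higher at an unadjusted p under 0.05 (edgeR). Casp4, which encodes caspase-11, stood at 7.45 to 10.2 CPM with PBS and at 14.7, 17.2 and 14.6 CPM with TNFa, groups that did not overlap (edgeR, log2 fold change 0.74 ± 0.21, adjusted p = 0.36). Casp1 stood at 0.42 ± 0.13 (adjusted p = 0.39). TNFa replicate 6 was highest for 1 of the 9, Gsdmd. Of 10 genes of the autophagy conjugation machinery, which places these GTPases on target membranes, 0 passed in edgeR, DESeq2 or limma-voom, 0 had an unadjusted p under 0.05 (edgeR), the median was -0.06, and none was highest in TNFa replicate 6.

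In the promoter windows that RefSeq gave for the lists, the ISRE core was present for 8 of 12 type I interferon targets, 4 of 6 further family genes, 2 of 11 other interferon gamma targets, 1 of 9 interferon gamma signalling genes and 0 of 6 NF-kB targets. GAS was present for 3 of the 12, 3 of the 6, 3 of the 11, 4 of the 9 and 2 of the 6 genes of these lists in the same order. The NF-kB consensus was present for 1 of the 12, 0 of the 6, 3 of the 11, 2 of the 9 and, among the NF-kB targets, 3 of the 6, Nfkb2, Nfkbia and Tnfaip3. Over all windows, 3.44% held the ISRE core, 8.3% GAS and 5.8% the NF-kB consensus.

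Markers of other cells were set beside these values, and 0 of them passed in edgeR or limma-voom. At an unadjusted p under 0.05 (edgeR) Ncr1 was higher and Cd79b, Adgre1, Lyz2 and Epcam were lower with TNFa, and DESeq2 called Epcam lower. In either direction, 8.31% of all tested genes had an unadjusted p under 0.05 (edgeR), and DESeq2 called 1.51% of all genes. Markers of NK cells and type 1 innate lymphocytes, for which 6 of 7 had a row, summed to 5.82 to 6.37 CPM with PBS and to 7.19, 3.18 and 7.59 CPM in TNFa replicates 4, 5 and 6. In replicate 6 Eomes was at 0 and Klrb1c at 0.0303 CPM, while Prf1 was at 3.21 CPM, its highest value of the 6 libraries (1.63 to 2.31 with PBS). Eomes was also at 0 in TNFa replicate 5, and Klrb1c in TNFa replicate 5 and PBS replicates 1 and 2. Tbx21 was at 0.119, 0.112 and 0.938 CPM in TNFa replicates 4, 5 and 6, against 0.791 to 1.80 with PBS. Of the 4 tested markers of this list, 1 had a higher mean with TNFa, Ncr1. Ncr1 was at 3.72, 2.17 and 3.06 CPM in TNFa replicates 4, 5 and 6, against 0.823 to 1.77 with PBS. T cell markers summed to 94.9 to 105 CPM with PBS and to 79.4 to 88.5 CPM with TNFa. Markers of macrophages, monocytes and dendritic cells summed to 51.4 to 109 CPM with PBS and to 65.5, 58.5 and 36.5 CPM in TNFa replicates 4, 5 and 6. Itgax, Chil3 and Mrc1 were at 0 in replicate 6. Itgax was also at 0 in TNFa replicate 5, and Mrc1 in TNFa replicates 4 and 5 and PBS replicate 2. In the same list Ly6c2 was at 13.6, 10.1 and 23.4 CPM in TNFa replicates 4, 5 and 6, against 9.68 to 12.1 with PBS, so it too was highest in replicate 6 and second in replicate 4, and Csf1r was at 2.33 CPM in replicate 6. Epithelial markers, all 5 with a row, summed to 35.8 to 48.9 CPM with PBS and to 107, 33.3 and 71.3 CPM in TNFa replicates 4, 5 and 6, led by the club cell gene Scgb1a1 at 81.0 CPM in replicate 4 and 46.1 in replicate 6. B cell markers summed to 13.8 to 20.6 CPM over the 6 libraries. Of the endothelial markers 2 of 5 had a row, Cldn5 staying at or under 0.411 CPM and Pecam1, which other cells also express, at 76.7 CPM in replicate 6. The part of epithelial, myeloid or NK cell RNA in the GTPase levels was not tested.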

How the data were processed

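RNA was sequenced from 6 libraries of sorted lung ILC2s, 3 with PBS and 3 with TNFa. The values are estimated counts, 1 per gene and library, in a table the authors deposited; its name records Partek and the method as E/M, read here as expectation-maximization. Such a method can divide reads among similar genes, which makes values of the GBP and IRG families uncertain. CASAVA 1.8.2, STAR 3.5.3, Partek and mm10 appear in the submitters' processing notes without roles. The annotation release and the strand setting were not given. Counts were rounded and tested with edgeR 4.0.16 (R 4.3.3): filterByExpr (minimum count 10, minimum total 15), TMM scaling and the robust quasi-likelihood test of TNFa against PBS over all 15719 genes kept, with Benjamini-Hochberg adjustment and a threshold of 0.05. The SE was derived from the estimate and its F statistic. The fit was tested on simulated data. DESeq2 1.42.0, limma-voom (limma 3.58.1), other scalings and filters, and leaving out each library were alternatives. CPM are TMM-scaled. Exon lengths came from GENCODE M21, where 21201 genes had the same coordinates, with 1-based ends. Totals of 25089415 to 32487004 counts make counting error small for these genes, so the spread between 3 libraries limits the test.

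The genes and lists were chosen with earlier results of these data known. By rule, the text names the 7 genes, all further family genes tested, called genes of each other list or up to 4 with the highest mean CPM, and the 8 genes most alike in profile, except 1 gene that is not reported here and was left out of the lists. Ifng, Irf1, Ifngr1, Ifnb1, Isg15, Casp4, the single cell type markers and the genomic neighbours were chosen after their values were seen. No protein sequences were used here.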

Additional observations from a re-analysis of the deposited data

How the results depend on the processing

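All 7 genes kept a higher estimate with TNFa under each of 12 alternatives, from 0.25 to 1.52 on the log2 scale. The median over the 7, 0.79 with all libraries, was 0.68 to 0.81 under other scalings, filters and tools and 0.30 to 1.07 with single libraries left out. The number of the 7 that passed, 0 with all libraries, was 1 with DESeq2 and 0 to 3 with single libraries left out, the 3 being without TNFa replicate 5. Over all genes the count of 16 became 3 without a filter on low counts, 25 with a filter at a mean of 5 CPM, 253 with DESeq2, and 1 to 67 with single libraries left out, the 67 being without TNFa replicate 5; leaving out a library also leaves the test fewer libraries, and the cause of the other shifts was not tested. Per kilobase of the longest transcript, the PBS levels of Gbp3, Gbp5 and Irgm1 were 9.29, 4.01 and 28.4 CPM. Of the further family genes, Irgq turned to 0.0084 without PBS replicate 1 and to 0.14 without TNFa replicate 5, and Gbp8 to -0.37 without TNFa replicate 6. In the part of the promoter window nearest the start, 6 genes held the ISRE core (all but Gbp5) and 4 held GAS, against 1.46% and 3.91% of all windows. No paired analysis was possible because the groups share no replicate numbers.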
